A study of Homo sapiens with 6 samples.

Results

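Transglutaminases and proteins of the cornified envelope were examined in HCT116 cells with and without LSD1. The group held 10 of the 60240 genes in the deposited table and was chosen by gene symbol: 4 transglutaminases (TGM1, TGM2, TGM3 and TGM5), 4 envelope precursors (IVL, SPRR1A, SPRR1B and SPRR3) and 2 plakins (EVPL and PPL). The choice was made with values of the LSD1 KO against WT comparison of these libraries known, so differences between LSD1 KO and WT in these 10 genes are given below as a description. Counts of these genes past a threshold are printed only beside the share of all genes past it, and no test is read from them. Gene expression was measured by RNA-seq of polyA RNA from HCT116, a human colorectal carcinoma cell line. There were 3 WT libraries and 3 LSD1 KO libraries. LSD1, encoded by KDM1A, is a histone demethylase that removes methyl groups from lysine 4 of histone H3, and the study used the knockout to ask how its loss alters promoter methylation marks and expression. The knockout was made by transient transfection of a CRISPR/Cas9 plasmid aimed at the first exon, followed by brief puromycin selection and expansion of single clones. The labels do not say how many clones the LSD1 KO libraries represent, or whether libraries of 1 group came from separate cultures, so p-values measure only the spread between these libraries.

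Transglutaminases are calcium-dependent enzymes that join glutamine to lysine side chains and so fix proteins to each other. In the upper layers of skin and other stratified epithelia, TGM1, TGM3 and TGM5 build the cornified envelope, an insoluble protein shell under the cell membrane. The plakins envoplakin and periplakin form its first scaffold, involucrin joins them early, and small proline-rich proteins are added as cross-bridging substrates. TGM2, or tissue transglutaminase, is not restricted to stratified epithelia, and besides crosslinking it binds GTP and takes part in cell adhesion. The colon has a simple epithelium that forms no cornified envelope.

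Total counts ranged from 25379279 to 29186963 per library. Levels are given as CPM, counts scaled to the library size after TMM adjustment. A count of 0 allows up to 3 counts, which at this depth is a level of 0.0993 to 0.113 CPM. This limit covers counting error only. KDM1A fell from 222.8 ± 8.75 CPM (SD, n = 3) in WT to 28.4 ± 1.30 CPM (n = 3) in LSD1 KO, a log2 fold change of -2.97 (SE 0.15, q = 0.000451, edgeR quasi-likelihood test with Benjamini-Hochberg adjustment). Same-numbered WT and LSD1 KO libraries deviated together, so each fit was also made with the replicate number as a block. Of the markers of simple intestinal epithelium, KRT8, KRT18, KRT19, EPCAM and CDH1 were present in every library, with KRT8 at 866 to 1691 CPM, while VIL1 had 2 to 8 counts per library. Markers of basal keratinocytes (KRT5, KRT14 and TP63) summed to at most 0.378 CPM in WT and 0.189 CPM in LSD1 KO. Of the suprabasal keratins, KRT1 and KRT2 had 0 counts in all 6 libraries, and KRT10 ranged from 16.5 to 33.2 CPM in WT and from 19.7 to 31.8 CPM in LSD1 KO. The labelled colorectal origin was thus matched by keratins of simple epithelium but not by VIL1.

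The 4 envelope precursors lie together on chromosome 1, within 124.4 kb of the epidermal differentiation complex (chr1:152908546-153032900 in GRCh38.p14). RefSeq promoter windows on GRCh38.p14, reaching from 250 bases before to 50 bases after the transcription start, were at hand for 6 of the 10 genes: TGM3, TGM5, IVL, SPRR1A, SPRR1B and SPRR3. The 250 bases before the start are shown for the 4 envelope precursors, because these neighbours sit in 1 cluster and had no counts. Capitals mark matches to TGANTCA, the binding motif of AP-1 (dimers of FOS and JUN proteins, known activators of these genes in keratinocytes), and to TATAAA, the TATA box.
IVL (chr1:152908296-152908545, + strand): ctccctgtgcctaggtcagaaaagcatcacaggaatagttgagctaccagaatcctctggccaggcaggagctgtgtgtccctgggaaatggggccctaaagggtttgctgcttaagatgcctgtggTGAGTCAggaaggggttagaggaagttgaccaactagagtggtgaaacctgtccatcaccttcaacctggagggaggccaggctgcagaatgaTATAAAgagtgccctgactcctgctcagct
SPRR1A (chr1:152983831-152984080, + strand): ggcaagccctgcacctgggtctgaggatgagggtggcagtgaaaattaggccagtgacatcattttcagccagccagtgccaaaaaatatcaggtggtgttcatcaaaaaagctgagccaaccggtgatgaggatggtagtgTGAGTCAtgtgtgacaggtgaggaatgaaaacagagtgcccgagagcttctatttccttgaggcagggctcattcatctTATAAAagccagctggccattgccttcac
SPRR3 (chr1:153001499-153001748, + strand): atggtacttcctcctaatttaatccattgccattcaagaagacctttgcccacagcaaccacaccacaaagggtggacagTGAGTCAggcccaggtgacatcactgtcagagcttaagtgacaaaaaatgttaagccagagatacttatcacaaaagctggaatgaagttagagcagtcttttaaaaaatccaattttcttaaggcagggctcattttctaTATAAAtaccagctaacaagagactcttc
SPRR1B (chr1:153030953-153031202, + strand): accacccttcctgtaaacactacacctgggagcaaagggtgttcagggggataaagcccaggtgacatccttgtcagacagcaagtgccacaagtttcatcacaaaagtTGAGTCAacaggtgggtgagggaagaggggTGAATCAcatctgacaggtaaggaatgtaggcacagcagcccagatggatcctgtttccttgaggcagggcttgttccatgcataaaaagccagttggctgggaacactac

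TGANTCA, which reads the same on both strands, was found in 4 of the 6 windows, those of IVL, SPRR1A, SPRR1B and SPRR3, against 7.71% of 35116 windows of the same length. Its first base lay 123 bases before the start in IVL, 108 in SPRR1A and 170 in SPRR3, and SPRR1B held matches at 141 and 111. TATAAA, searched on both strands, was also found in 4 of the 6, against 11.5% of all windows, and lay 30 bases before the start in IVL and, as the nearest of 4 matches, in TGM3, and 29 bases before it in SPRR1A and SPRR3. The E-box CACCTG, with its reverse complement CAGGTG, was found in 4 of the 6 windows against 20.6% of all. These motifs were also found in other envelope precursor genes, which are examined below. Of 36 such windows, TGANTCA was in 12, TATAAA in 21 and the E-box in 12. Motifs of the grainyhead-like factors (AACCGGTT) and of OVOL proteins (CCGTTA), both factors of epithelial differentiation, were found in 0 of the 6, against 0.134% and 3.07% of all windows. The windows of all 6 genes were poor in CpG, with 0 in IVL and SPRR1B, 1 in SPRR3, 3 in SPRR1A, 5 in TGM5 and 6 in TGM3, beside a median of 14 over all windows. Their GC content ranged from 43.3% to 55.3%, beside a median of 58.7%. These matches describe letters in a window and do not show binding.

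No read was assigned to any of the 4 envelope precursors. IVL, which encodes involucrin, a glutamine-rich early substrate, had 0 counts in each of the 3 WT and the 3 LSD1 KO libraries. SPRR1A, SPRR1B and SPRR3, which encode short proline-rich crosslinking proteins, likewise had 0 counts in every library. Each count of 0 allows a level of up to 0.0993 to 0.113 CPM, depending on the library, so expression of these genes was not detectable at this depth in either group. SPRR1A shares 13.9% of its 31-base words with SPRR1B, and SPRR1B shares 15.6% of its own with SPRR1A, but with both at 0 no reads could be split between them.

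The 4 transglutaminases were far apart in level. TGM3, the epidermal and hair follicle enzyme, had 0 counts in all 6 libraries. Of its 31-base words 94.8% are shared with another annotated gene, ENSG00000286022, which also had 0 counts. TGM5, an enzyme of the upper epidermis, had 0, 3 and 1 counts in the WT libraries and 0 counts in each LSD1 KO library, so no library exceeded the limit of 3 counts. TGM1, the membrane-bound keratinocyte enzyme, was low but present, with 2.0, 1.70 and 2.42 CPM in WT replicates 1 to 3 and 2.14, 1.44 and 1.89 CPM in LSD1 KO replicates 1 to 3. The groups overlapped, with the highest value in WT replicate 3 and the lowest in LSD1 KO replicate 2. The mean was 2.04 ± 0.359 CPM in WT and 1.82 ± 0.359 CPM in LSD1 KO (SD, n = 3 each), and the log2 fold change was -0.16 (SE 0.33).

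**Figure D1:**
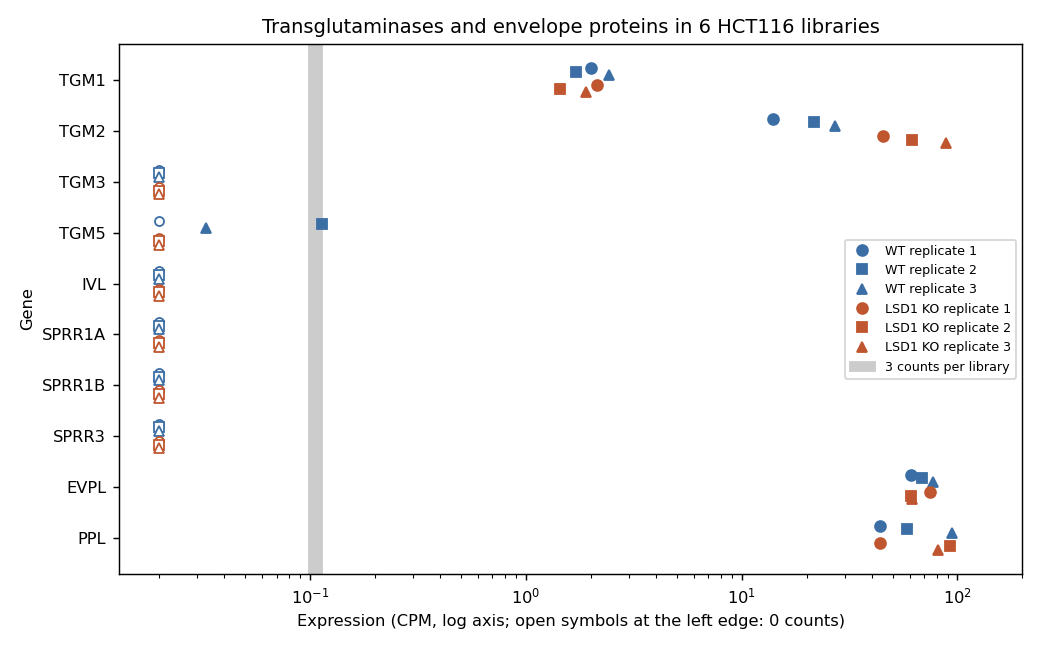
Expression of the 10 genes in each library, in CPM on a log axis, with WT in blue, LSD1 KO in orange and 1 symbol shape per replicate number. Open symbols at the left edge are libraries with 0 counts and the grey band is the level of 3 counts. TGM3, IVL and the 3 SPRR genes sit at 0 in all 6 libraries, and TGM2 is the gene whose WT and LSD1 KO symbols do not overlap.

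TGM2, on chromosome 20 (chr20:38127385-38168475 in GRCh38.p14), was the transglutaminase with the highest level in every library. It stood at 14.0, 21.7 and 27.0 CPM in WT replicates 1 to 3, from 370, 573 and 816 counts. In LSD1 KO replicates 1 to 3 it stood at 45.0, 61.8 and 88.2 CPM, from 1261, 1680 and 2332 counts. All 3 LSD1 KO libraries lay above all 3 WT libraries, and the order of the replicate numbers was the same in both groups. The mean was 20.9 ± 6.56 CPM in WT and 65.0 ± 21.7 CPM in LSD1 KO (SD, n = 3 each), a ratio of 3.11. The log2 fold change was 1.64 (SE 0.31) without the replicate block and 1.64 (SE 0.098) with it. Joining LSD1 KO to WT by replicate number gave log2 differences of 1.68, 1.51 and 1.70. The spread within each group was thus wider than the spread of the differences between same-numbered libraries. In bulk RNA more cells with TGM2 and more TGM2 RNA per cell cannot be told apart.

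Reads of TGM2 are little shared with other genes on the same strand, with which it has 1.75% of its 31-base words in common. A further 6.45% are complementary to transcripts on the other strand, where RPRD1B was the gene with the largest number of such words. The sources used here do not say whether counting used strand. RPRD1B stood at 42.4 ± 8.34 CPM in WT and 40.8 ± 8.53 CPM in LSD1 KO (SD, n = 3 each), with overlapping groups. TGM2 is also a gene of fibroblasts, endothelium and leukocytes, and markers of these cells were examined beside it. Of the 5 fibroblast markers, COL1A2, COL3A1, DCN and LUM had at most 3 counts in any library, whereas COL1A1 stood at 22.6 ± 1.97 CPM in WT and 32.4 ± 2.04 CPM in LSD1 KO (SD, n = 3 each), without overlap. The summed fibroblast list, nearly all COL1A1, accordingly ranged from 20.4 to 23.9 CPM in WT and from 30.1 to 34.0 CPM in LSD1 KO. The 2 matched endothelial markers summed to between 0.303 and 0.893 CPM in WT and between 0.662 and 1.36 CPM in LSD1 KO, with CDH5 at 0 counts in 5 of 6 libraries. The 4 leukocyte markers summed to between 0.794 and 1.13 CPM in WT and up to 1.97 CPM in LSD1 KO, where the lowest sum was just under the highest of WT, with CD3E at 0 in every library and PTPRC at 0 in 5 of 6. Of the 6 epithelial markers, EPCAM stood at 203.7 ± 39.2 CPM in WT and 104.2 ± 28.3 CPM in LSD1 KO and KRT18 at 507.3 ± 141.5 and 358.5 ± 13.8 CPM (SD, n = 3 each), both lower in LSD1 KO without overlap. Over all genes tested 7.75% did not overlap. With the block the q value was 0.0788 for EPCAM, 0.0628 for COL1A1 and 0.230 for KRT18 (edgeR), beside 1.6% of all genes under 0.1. Without the block EPCAM had 0.668 in edgeR and 0.0508 in DESeq2. KRT8, KRT19, CDH1 and VIL1 overlapped between the groups. In all 3 same-numbered comparisons KRT19 was higher and CDH1 lower in LSD1 KO, while KRT8 and VIL1 went in both directions. The summed epithelial list overlapped as well, with 2029 to 3795 CPM in WT and 2404 to 3138 CPM in LSD1 KO. The part of COL1A1, EPCAM and KRT18 in the TGM2 values was not tested.

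**Figure D2:**
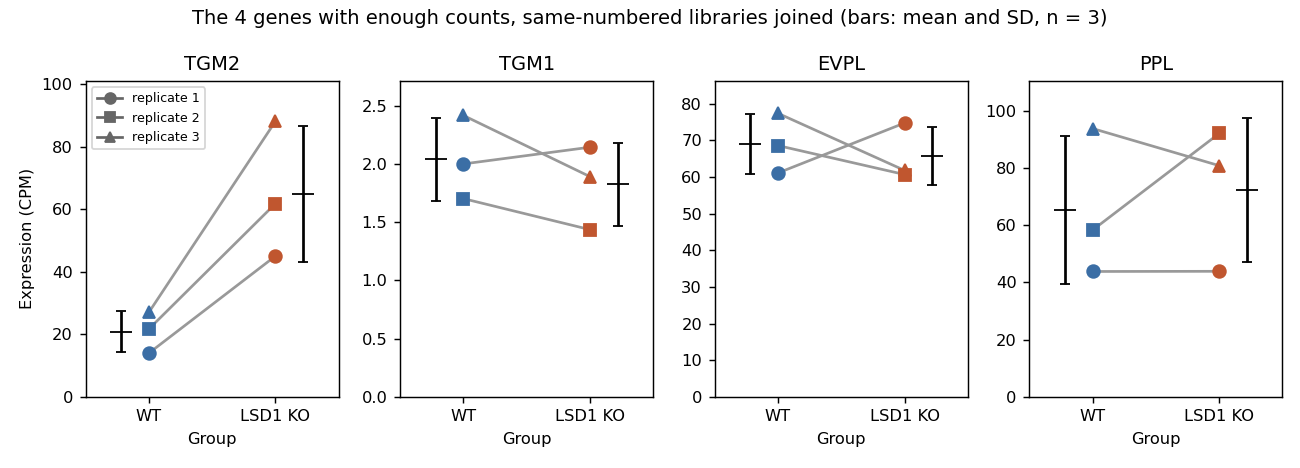
Expression in CPM of TGM2, TGM1, EVPL and PPL in WT and LSD1 KO, with same-numbered libraries joined and black bars for the mean and SD (n = 3). The 3 TGM2 lines rise side by side, from between 14.0 and 27.0 to between 45.0 and 88.2 CPM, while the lines of the other genes cross or go in different directions.

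The plakins of the envelope scaffold were expressed in every library. EVPL, which encodes envoplakin, a desmosome-linked protein, stood at 61.1, 68.6 and 77.4 CPM in WT replicates 1 to 3 and at 74.8, 60.7 and 61.8 CPM in LSD1 KO replicates 1 to 3. The groups overlapped, and EVPL was higher in LSD1 KO in replicate 1 and lower in replicates 2 and 3. Its log2 fold change was -0.07 (SE 0.17), and 3.83% of its 31-base words are shared with EVPLL. PPL, which encodes periplakin, the partner with which envoplakin forms dimers, stood at 43.8, 58.3 and 93.8 CPM in WT and at 43.9, 92.1 and 80.9 CPM in LSD1 KO. The groups overlapped over nearly their whole range, and in both of them replicate 1 was the lowest. The log2 fold change of PPL was 0.15 (SE 0.34), with log2 differences of 0.0020, 0.66 and -0.21 within same-numbered libraries. The log2 CPM of EVPL and PPL had a Pearson's r of -0.044 over the 6 libraries, which is a description of few libraries from 2 groups.

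Levels were compared between genes only per length, as CPM per kilobase of the canonical transcript. In WT, EVPL stood at 10.7 ± 1.26, PPL at 10.5 ± 4.12, TGM2 at 4.20 ± 1.32 and TGM1 at 0.743 ± 0.131 CPM per kb (SD, n = 3 each). EVPL and PPL did not differ beyond their spread, all TGM2 values lay below all values of both plakins, and all TGM1 values lay below those of TGM2. In LSD1 KO the order was TGM2 at 13.1 ± 4.37, PPL at 11.6 ± 4.04, EVPL at 10.2 ± 1.21 and TGM1 at 0.664 ± 0.131 CPM per kb (SD, n = 3 each). There the values of TGM2 and of both plakins overlapped, and TGM1 alone lay apart. Among the 17459 tested genes with a known length, the mean level of TGM2 per length stood at percentile 45.5 in WT and 70.4 in LSD1 KO. EVPL stood at percentiles 65.7 and 64.3, PPL at 65.2 and 67.4, and TGM1 at 20.2 and 18.5. Of the summed level per length of the 9 genes of the transglutaminase family, TGM2 made up 78.7%, 86.9% and 85.5% in the WT libraries and 91.7%, 95.9% and 96.1% in the LSD1 KO libraries.

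Of the 10 genes, 4 had enough counts to enter the fit over all genes (TGM1, TGM2, EVPL and PPL). The other 6 had at most 3 counts in any library, beside 34644 of the 60240 genes listed. Without the block, 0 of these 4 genes had a q value under 0.1 (edgeR quasi-likelihood test with Benjamini-Hochberg adjustment), beside 1 of 17672 genes tested (0.00566%). That 1 gene was KDM1A, the gene knocked out. With the replicate block the count was 1 of 4, TGM2, beside 282 of 17672 genes (1.6%), of which 185 were higher in LSD1 KO (1.05%). Groups did not overlap for 1 of the 4 genes, beside 7.75% of all genes tested. These genes were chosen with this same comparison known, so the count of 1 restates the choice and nothing is read from it.

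Beyond the 10 genes, 117 genes in 7 lists were examined, covering envelope formation and retinoic acid, a regulator of transglutaminase genes. The lists were written from general knowledge but with earlier results of these libraries known, so their calls are not independent evidence. Of these 117 genes, 35 had 0 counts in every library, beside 26383 of the 60240 genes listed, and 49 were tested. Without the block, 0 of the 49 had a q value under 0.1 (edgeR), and 3 had an unadjusted p under 0.05 (DHRS3, ELF3 and ABHD5), beside 552 of 17672 genes (3.12%). With the block 1 of 49 was called, DHRS3, which was higher in LSD1 KO, beside 1.6% of all genes. DESeq2 without the block called DHRS3 and ELF3, both higher, beside 95 of the 25298 genes to which it gave a q value (0.376%). Groups did not overlap for 8 of the 49 genes, 4 higher and 4 lower in LSD1 KO, beside 7.75% of all genes. The median log2 fold change over the 49 genes was 0.034, beside 0.00082 over all genes tested.

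**Figure D3:**
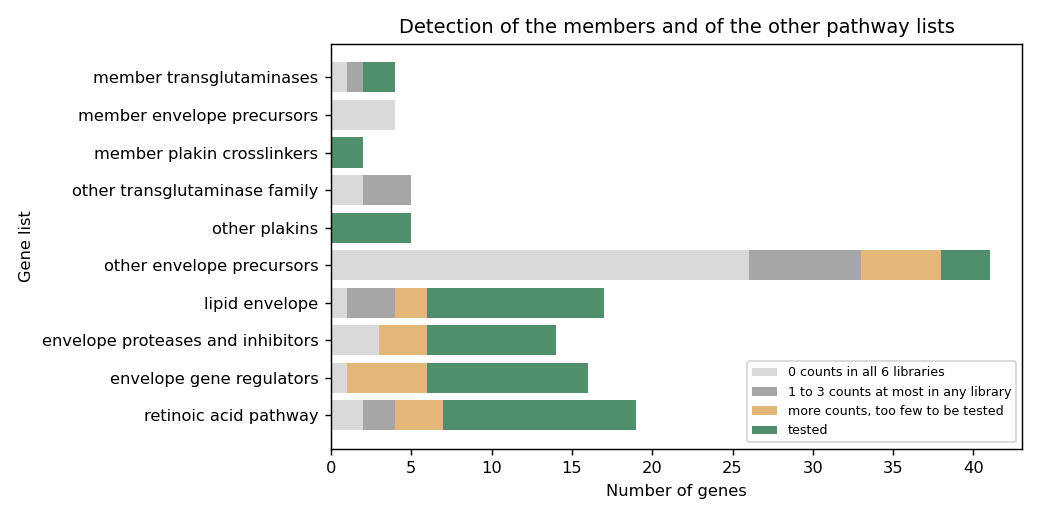
Number of genes in each list by how far they were detected, with the 10 genes of the group in the upper 3 bars and the other lists below. Grey shades mark genes with at most 3 counts in any library: all 4 envelope precursors and all 5 other transglutaminase family genes, but 0 of the 5 other plakins.

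The other members of the enzyme family were not detected above the limit of 3 counts. TGM4, the prostate transglutaminase, had between 0 and 3 counts per library, and TGM7 had 2 counts in 1 WT library and 0 elsewhere. EPB42, the erythrocyte relative without enzyme activity, had at most 1 count per library, and TGM6 and F13A1, which encodes the clotting factor XIII A chain, had 0 in all of them. The substrates were similarly empty: of 41 other envelope precursors, among them loricrin, filaggrin, SPRR2 and late cornified envelope genes, 26 had 0 counts throughout, 33 had at most 3 counts in any library and 3 were tested. These were ANXA1, CNFN and CSTA, with 0 called in either edgeR fit and all 3 fold changes above 0 (median 0.59 on the log2 scale). ANXA1, the calcium-dependent membrane protein annexin A1, stood at 580.7 ± 74.0 CPM in WT and 747.8 ± 286.7 CPM in LSD1 KO (SD, n = 3 each), with LSD1 KO replicate 2 the highest and a q value of 0.342 in edgeR with the block. CNFN, which encodes cornifelin, stood at 3.76 ± 1.24 and 5.72 ± 1.52 CPM (SD, n = 3 each), with a log2 fold change of 0.62 (SE 0.19, edgeR with the block, q = 0.219).

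The other plakins, which tie intermediate filaments to junctions and to the cytoskeleton, were all tested, and 0 of 5 were called in either edgeR fit. Of their log2 fold changes, 1 was above and 4 were below 0, with a median of -0.25. PLEC, which encodes the linker plectin, stood at 1046 ± 258 CPM in WT and 995 ± 19.8 CPM in LSD1 KO, and its values overlapped between the groups. DSP, which encodes desmoplakin of the desmosome, stood at 280.2 ± 69.6 and 236.1 ± 53.6 CPM (SD, n = 3 each) and was lower in LSD1 KO in all 3 same-numbered comparisons, with a log2 fold change of -0.24 (SE 0.083, edgeR with the block, q = 0.266).

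Enzymes and carriers of the lipid envelope, the ceramide layer bound to the protein shell, gave 11 tested genes of 17, with 4 fold changes above and 7 below 0, and 0 called in either edgeR fit. ELOVL1, a fatty acid elongase, stood at 79.4 ± 6.02 CPM in WT and 85.9 ± 10.6 CPM in LSD1 KO, and UGCG, the glucosylceramide synthase, at 76.7 ± 2.96 and 85.4 ± 13.3 CPM (SD, n = 3 each), both with overlapping groups. Groups did not overlap for 3 of the 11, beside 7.75% of all genes tested. CYP4F22 was higher in LSD1 KO, at 9.91 ± 2.80 CPM in WT and 14.8 ± 3.47 CPM in LSD1 KO (SD, n = 3 each). ALOXE3 was lower, at 6.13 ± 0.36 and 5.18 ± 0.52 CPM (SD, n = 3 each). ABHD5, a lipase coactivator, was also lower, at 20.3 ± 3.25 and 14.5 ± 2.17 CPM (SD, n = 3 each). Its log2 fold change was -0.49 (SE 0.11, edgeR with the block, q = 0.117), which misses the threshold. Proteases and inhibitors of the envelope gave 8 tested genes of 14, with 5 fold changes above and 3 below 0, and 0 called in either edgeR fit. CTSD, a lysosomal protease that can activate TGM1, stood at 144.3 ± 38.7 CPM in WT and 150.6 ± 40.2 CPM in LSD1 KO, and BLMH, the bleomycin hydrolase that degrades filaggrin, at 64.2 ± 5.70 and 58.3 ± 2.91 CPM (SD, n = 3 each).

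Among transcription factors of envelope genes, 10 of 16 were tested, 7 with fold changes above and 3 below 0, and 0 were called by edgeR in the fits with all libraries and the filter on low counts. FOSL1, the AP-1 subunit FRA1, was present in every library, at 271.7 ± 71.8 CPM in WT and 273.6 ± 83.7 CPM in LSD1 KO (SD, n = 3 each), with a log2 fold change of 0.0024 (SE 0.097) with the block. These values are RNA of 1 AP-1 subunit. The part of AP-1 in the 0 counts of IVL and the SPRR genes, whose windows hold TGANTCA, was not tested. ELF3, an epithelial ETS factor known to act on SPRR and transglutaminase promoters, stood at 23.8, 52.4 and 38.9 CPM in WT replicates 1 to 3. In LSD1 KO it stood at 98.3, 60.1 and 128.7 CPM. The groups did not overlap, but the values of replicate 2 were close to each other, with log2 differences of 2.04, 0.20 and 1.72 within same-numbered libraries. Its log2 fold change was 1.32 (SE 0.34, edgeR without the block, q = 0.788) and 1.33 with the block (SE 0.30, edgeR, q = 0.117). DESeq2 without the block gave ELF3 a q value of 0.0352 (Benjamini-Hochberg adjustment). ELF3 was also called by edgeR with no filter on low counts, and with the block after leaving out pair 2 or pair 3.

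In the retinoic acid pathway, 12 of 19 genes were tested, 8 with fold changes above and 4 below 0. Groups did not overlap for 3 of the 12, beside 7.75% of all genes tested. Of these, DHRS3 was higher in LSD1 KO, and CYP26A1, with 5 to 21 counts per library, and RXRA were lower. DHRS3, a reductase that turns retinaldehyde back to retinol, stood at 2.60, 4.99 and 4.53 CPM in WT replicates 1 to 3 and at 25.5, 9.13 and 23.7 CPM in LSD1 KO replicates 1 to 3. Every LSD1 KO library lay above every WT library, and LSD1 KO replicate 2 was the lowest of its group. The mean was 4.04 ± 1.27 CPM in WT and 19.4 ± 8.98 CPM in LSD1 KO (SD, n = 3 each). With the block the log2 fold change of DHRS3 was 2.18 (SE 0.38, q = 0.0519, edgeR quasi-likelihood test with Benjamini-Hochberg adjustment), a call on a list written with earlier results of these libraries known. Without the block its log2 fold change was 2.26 (SE 0.42, edgeR, q = 0.443), and DESeq2 gave a q value of 1.55e-05. ALDH1A3, which makes retinoic acid from retinaldehyde, stood at 245.2 ± 21.4 CPM in WT and 345.2 ± 144.7 CPM in LSD1 KO (SD, n = 3 each). Its log2 fold change was 0.41 (SE 0.20, edgeR with the block, q = 0.433). The groups overlapped, and LSD1 KO replicate 2 lay below every WT library. Same-numbered libraries gave log2 differences of 0.59, -0.31 and 0.94. FABP5, a carrier of fatty acids and retinoic acid, ranged from 108 to 176 CPM in WT and from 99.5 to 182 CPM in LSD1 KO.

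**Figure D4:**
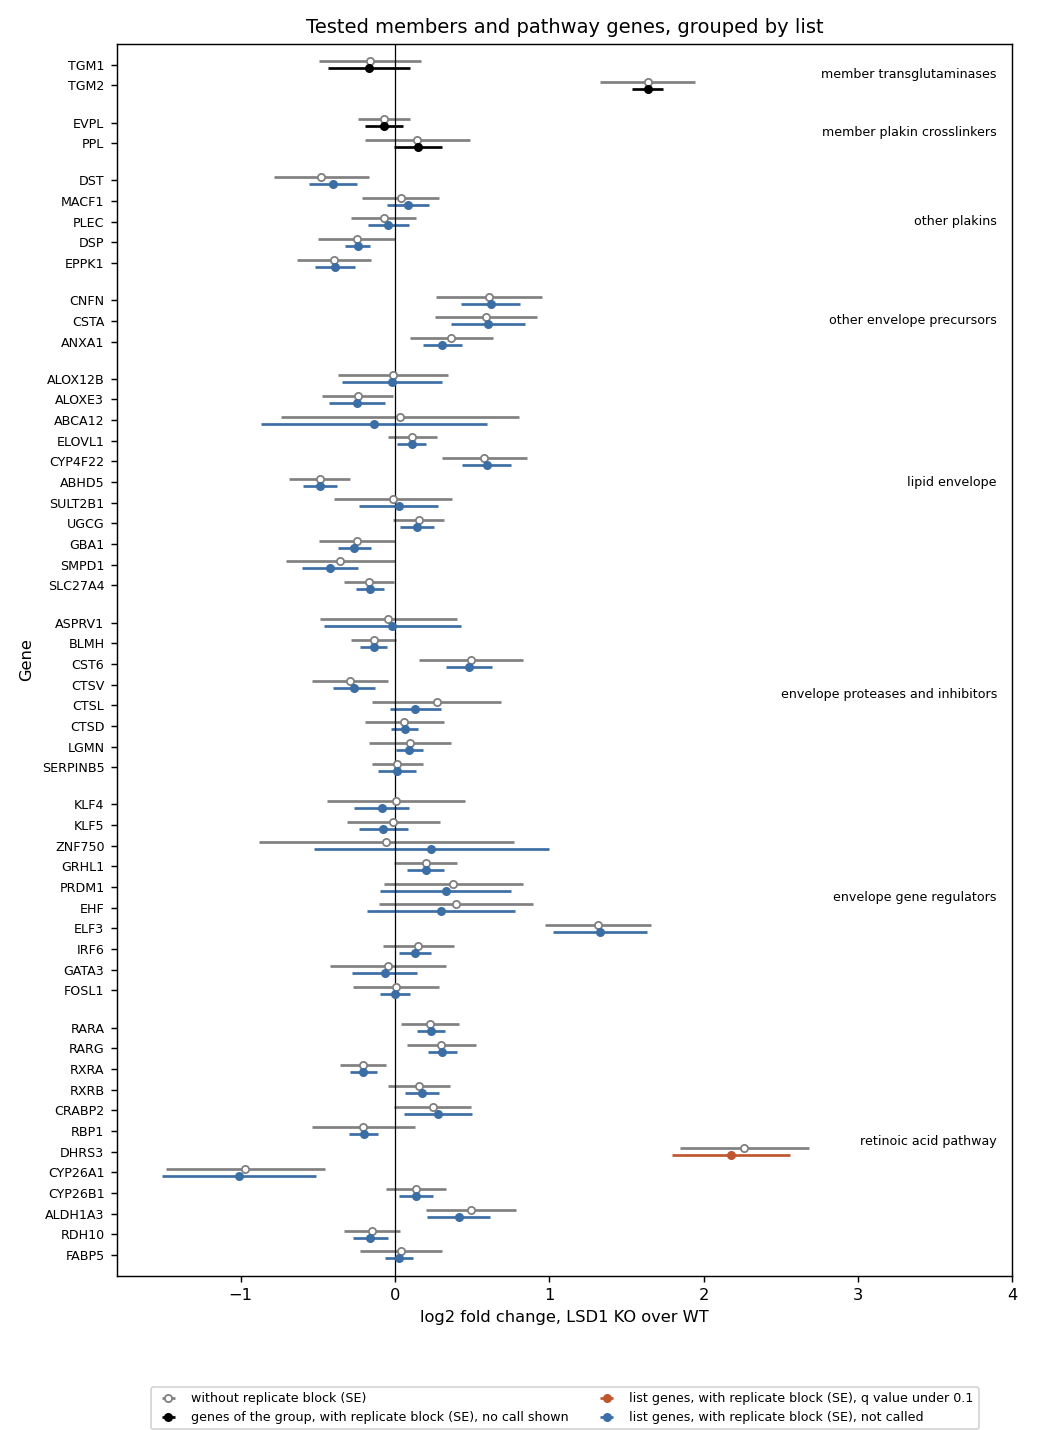
log2 fold change of LSD1 KO over WT for the tested genes of the group and of the lists, with 1 SE, from the fits without (open) and with the replicate block (filled). The genes of the group are in black with no call shown, because they were chosen with this comparison known, and TGM2 lies at 1.64. DHRS3, at 2.18 with the block, is the list gene with a q value under 0.1, and ELF3 lies at 1.33.

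The genes whose pattern over the 6 libraries was most like that of TGM2 were named by Pearson's r of log2 CPM among 14812 genes with a mean of at least 1 CPM. They were PCMTD1 (r = 0.994), TRIB2 (r = 0.994), GABRR2 (r = 0.990), KICS2 (r = 0.989) and RAB37 (r = 0.989). The points share the same libraries and fall into 2 groups, and 211 genes had an r above 0.9, so r is a description only. TRIB2, a pseudokinase, stood at 17.4 ± 2.97 CPM in WT and 30.4 ± 4.54 CPM in LSD1 KO (SD, n = 3 each). PCMTD1 stood at 18.4 ± 0.879 and 23.3 ± 1.71 CPM, KICS2 at 19.9 ± 1.23 and 23.5 ± 1.18 CPM, and RAB37 at 12.7 ± 1.58 and 17.9 ± 1.97 CPM (SD, n = 3 each). GABRR2, a GABA receptor subunit, stood at 0.581 ± 0.173 and 1.45 ± 0.256 CPM (SD, n = 3 each). Within the group, r with TGM2 over the 6 libraries was 0.51 for PPL, -0.18 for EVPL and -0.30 for TGM1.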

How the data were processed

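RNA-seq libraries of 3 WT and 3 LSD1 KO HCT116 cells were analysed. FastQC, Trimmomatic 0.39 and Salmon 1.4.0 are the tools in the submitters' processing notes, with GENCODE transcripts of GRCh38 as the reference. The authors deposited expected counts per gene, as whole numbers without scaling. No library is a duplicate of another. Groups and replicate numbers came from the sample titles.

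Counts were tested with edgeR 4.0.16 in R 4.3.3 (TMM, filterByExpr by group, quasi-likelihood test, Benjamini-Hochberg adjustment, q under 0.1), which left 17672 of 60240 genes. log2 CPM used a prior count of 2. Pairing was checked by correlating deviations from the group means: Pearson's r over 17672 genes was 0.553, 0.553 and 0.404 for same-numbered libraries and -0.516 to 0.0454 for differently numbered ones, and the block lowered the common biological coefficient of variation from 0.279 to 0.133. The sources used here do not say what a shared number stands for. DESeq2 1.42.0, other filters, size factors and thresholds, and leaving out libraries or pairs were the alternatives. Steps were tested on simulated data.

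The 10 genes and all lists were chosen with earlier results of these data known. The text names these 10 genes, KDM1A, list genes called with or without the block, the 2 most abundant genes of each list and the 5 genes most like TGM2. ABHD5, ALOXE3, CYP4F22, CSTA, CYP26A1, RXRA, TGM6, F13A1, EPB42 and, in the closing section, other list genes were named after their values were seen. Transcript lengths and shared 31-base words came from GENCODE v44lift37, symbols from a supplied table, and positions and promoters from RefSeq on GRCh38.p14. Promoters of TGM1, TGM2, EVPL and PPL and protein sequences were not analysed here. Scripts used Python 3.11.15, numpy 2.4.6, pandas 2.3.3 and matplotlib 3.10.9.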

Additional observations from a re-analysis of the deposited data

How the results depend on the processing

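Without the replicate block 1 gene was called, KDM1A. The number called was 114 of 33857 genes with no filter on low counts, 95 of the 25298 given a q value by DESeq2, and 282 of 17672 with the block. It was 597 of 33857 genes fitted with DESeq2 and the block. With the block and without pair 1, 2 or 3 it was 428 of 17835, 1055 of 18043 and 198 of 17686. Leaving out single libraries gave between 1 and 26, the highest (26 of 18278) without LSD1 KO replicate 2. Of the 117 list genes 49 were tested and 0 called, and other settings are given beside the counts over all genes above. The same settings gave 2 of 82 fitted (no filter), 2 of 82 (DESeq2), 1 of 49 (block) and 3 of 82 (DESeq2 and block). With the block and without pair 1, 2 or 3 it was 2 of 53, 9 of 50 and 3 of 48. Leaving out single libraries gave between 0 and 1, the 1 being DHRS3 without LSD1 KO replicate 2. DHRS3 was called in each of these settings in which any list gene was called. The others were ELF3 (no filter, DESeq2, block without pair 2 or 3), EPPK1 (DESeq2 and block, block without pair 1), CST6 (DESeq2 and block, block without pair 3), and ABHD5, ALDH1A3, CRABP2, DST, KLF4, KLF5 and SMPD1 (block without pair 2). The 10 genes, of which 4 or 5 entered each fit, were chosen with this comparison known, so their counts are a description. In the fit without the block and after leaving out any single library 0 were called. TGM2 was the 1 called with no filter, with DESeq2, with the block, and with DESeq2 and the block. It was also the 1 called with the block without pair 1, 2 or 3. These counts stand beside those over all genes above, restate the choice, and nothing is read from them. Other size factors, at least 10 counts in every library, or q under 0.05 left 1, 0 and 0 called for all genes, list genes and the 10 genes.

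The log2 fold change ranged over 15 alternatives from 1.36 to 1.87 for TGM2, from -0.30 to -0.022 for TGM1, from -0.25 to 0.060 for EVPL, from -0.13 to 0.50 for PPL and from -3.01 to -2.95 for KDM1A. Why the settings differ in their counts was not tested. Depth limits the 6 genes with at most 3 counts per library, whose fold changes cannot be given.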
